A study of Mus musculus with 24 samples.

Results

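What a muscle wound left behind in MRL/MpJ mice was read from the quadriceps of animals whose volumetric muscle loss (VML) defect had been filled with saline alone, set against the quadriceps of uninjured animals of the same strain. The comparison used 6 of the 24 bulk RNA sequencing libraries of the study, 3 from saline-treated and 3 from uninjured MRL/MpJ (MRL) mice, and all 14159 genes that carry a symbol in the deposited matrix. The mice were females that were 6 to 8 weeks old at surgery, and injured muscle was taken 21 days later. The saline injury is the vehicle control for implants of decellularized extracellular matrix (ECM) and polyethylene particles (PE), and the same 4 treatments were given to C57BL/6 (B6) mice, with 3 libraries in each of the 8 groups. Each library came from a whole quadriceps, so the wound was read together with the muscle around it. In such bulk RNA, fewer cells of a type and less RNA per cell cannot be told apart. The study describes its libraries as independent samples.

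VML removes a block of muscle together with its basement membranes, nerves and vessels, and such a defect is usually bridged by scar and fat instead of fibres. At its border, satellite cells leave quiescence, express the myogenic regulators, fuse, and form young fibres that carry embryonic and neonatal contractile proteins and the fetal γ subunit of the acetylcholine receptor until they mature and are innervated. Macrophages clear the debris and fibroblasts lay down matrix in the same period. MRL is an inbred strain known for closing ear wounds with little scar and for a tendency to autoimmunity.

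Values are log2 CPM, counts scaled to the size of the library, after the authors' normalization between libraries, so a step of 1 is a factor of 2 in level. Log2 fold changes are saline minus uninjured, with the standard error (SE) of a limma fit over all 24 libraries, and an adjusted p under 0.05 made a call. No gene was called between saline-treated and uninjured MRL muscle (0 of 14159, 0%, smallest limma adjusted p = 1). In the same fit 439 genes (3.1%) had an unadjusted p under 0.05, of which 249 were higher (1.76%) and 190 lower (1.34%) in saline-treated muscle, while that threshold alone gives 708. The count of 439 depended on the fit, with 822 in a fit to the 6 libraries alone and 153 without uninjured replicate 3. The 3 saline libraries all lay above the 3 uninjured ones for 846 genes (5.97%) and all below them for 1001 (7.07%). For any such gene an exact 2-sided permutation test gives p = 0.10, the smallest that 3 libraries against 3 allow. Every difference given here is therefore a description of these 6 libraries, and the background shares of 5.97% and 7.07% stand behind each count of genes whose groups did not overlap.

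Large differences were mostly toward higher values. Log2 fold changes above 1 were measured for 562 genes (3.97%) and below -1 for 145 (1.02%), and above 2 for 89 (0.629%) and below -2 for 17 (0.12%), although the median over all genes was -0.01. Saline replicate 1 stood apart from the other 5 libraries. Its correlation with them across genes ranged from 0.937 to 0.951, against 0.953 to 0.979 among the others, it held the highest value of the 6 for 28.9% of genes and the lowest for 26.9%, and its CPM summed to 899556 against 1090763 to 1262288. It was also the most extreme saline library for 63.1% of the genes whose saline values all lay above and for 61.0% of those whose values all lay below. Medians without it, or without another library that moved them, are given beside many of the gene groups. The typical gene had an SD of 0.285 among the saline and 0.245 among the uninjured libraries. The labelled tissue was plain in all 6 libraries, in which skeletal actin Acta1 ranged from 14.49 to 15.06 log2 CPM.

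2 promoters of genes described below are shown, and neither gene was called. They are the 250 bases before the RefSeq start on GRCm38.p6, both on the plus strand, written 5′ to 3′. In Chrng, the γ subunit of the fetal acetylcholine receptor, capitals mark CAGCTG, a sequence that myogenic regulators such as myogenin and MyoD are known to bind and that reads the same on both strands.
Chrng, chr1:87205561-87205810: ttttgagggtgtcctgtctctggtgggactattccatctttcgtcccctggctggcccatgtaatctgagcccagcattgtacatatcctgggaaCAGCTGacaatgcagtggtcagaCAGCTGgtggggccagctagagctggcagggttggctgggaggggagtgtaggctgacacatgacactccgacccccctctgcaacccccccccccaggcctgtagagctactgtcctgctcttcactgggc
In Mt2, a metallothionein that binds zinc and copper, capitals mark TGCACNC or TGCGCNC on either strand, the core of the metal response element.
Mt2, chr8:94172368-94172617: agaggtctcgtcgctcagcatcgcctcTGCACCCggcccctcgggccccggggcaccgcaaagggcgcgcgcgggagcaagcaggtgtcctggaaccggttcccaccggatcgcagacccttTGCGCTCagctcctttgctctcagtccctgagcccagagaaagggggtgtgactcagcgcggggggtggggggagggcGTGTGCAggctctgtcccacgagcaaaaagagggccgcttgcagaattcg
The Chrng window held 2 matches, which began 155 and 132 bases before the start, and 1.26% of 32851 mouse promoters of this length held at least 2. The Mt2 window held 3 matches, which began 223, 128 and 50 bases before the start, and 1.26% of promoters held at least 3. The window of Mt1, the neighbouring metallothionein described later, held 1 such match, which began 23 bases before the start, and 21.4% of promoters held at least 1. A match describes the letters and not a bound site.

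Among the genes of young and newly fused fibres, several differed by a log2 fold change above 2. Chrng lay at 0.65, -2.59 and -0.09 log2 CPM in the uninjured libraries and at 4.98, 2.62 and 1.78 in the saline libraries. All saline values were above all uninjured values, with saline replicate 1 the highest, and the log2 fold change was 3.80 ± 1.33 (SE, n = 3 and 3). On GRCm39 the gene spans bases 87132379 to 87140416 of chromosome 1.

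The fusion proteins that merge myoblasts into fibres showed the same order. Mymx (myomixer, listed in the matrix as Gm7325, at bases 45911239 to 45913028 of chromosome 17 on GRCm39) was at -3.19, -3.26 and -1.0 in uninjured and at 3.85, 1.55 and 0.82 in saline-treated muscle. Mymk (myomaker, listed as Tmem8c) was at -0.56, -1.12 and -0.19 in uninjured and at 4.38, 2.12 and 0.81 in saline-treated muscle. In uninjured muscle 2 values of Mymx lay under the floor of 3 counts (-2.33 log2 CPM), and every saline value of both genes lay above it. The log2 fold changes were 4.56 ± 1.37 for Mymx and 3.06 ± 1.28 for Mymk.

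Sarcolipin (Sln), a small inhibitor of the calcium pump that is abundant in developing and regenerating fibres, was at 3.67, 1.37 and 1.81 in uninjured and at 7.63, 5.23 and 3.71 in saline-treated muscle. The lowest saline value lay just above the highest uninjured one. Myl4, the embryonic and atrial light chain, was at 2.90, 2.04 and 2.01 against 6.21, 3.40 and 3.17. Embryonic myosin heavy chain Myh3 was at 4.41, 1.14 and 1.97 against 6.54, 5.0 and 3.51, and its groups overlapped through uninjured replicate 1. Neonatal Myh8 was at 3.77, 2.42 and 2.09 against 6.56, 3.14 and 3.35, which also overlapped. The log2 fold changes of these contractile and calcium-pump genes were 3.25 ± 1.5 for Sln, 1.94 ± 1.03 for Myl4, 2.51 ± 1.27 for Myh3 and 1.59 ± 1.23 for Myh8.

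As a list, 14 of 17 measured developmental muscle genes had a log2 fold change above 0, against 48.6% of all genes. Their median was 1.59, with a median of -0.01 over all genes. 5 of them did not overlap and were higher (Chrng, Mymx, Mymk, Sln and Myl4), 4 had an unadjusted p under 0.05 (all of these but Myl4), and none was called. Measured from the mean of the uninjured libraries, the median of the list was 2.91 in saline replicate 1, 1.08 in replicate 2 and 0.59 in replicate 3. The uninjured libraries themselves lay at 0.51, -0.50 and 0.21, so replicate 3 stood barely above the highest of them. Without saline replicate 1 the median of the list was 0.97.

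**Figure D1:**
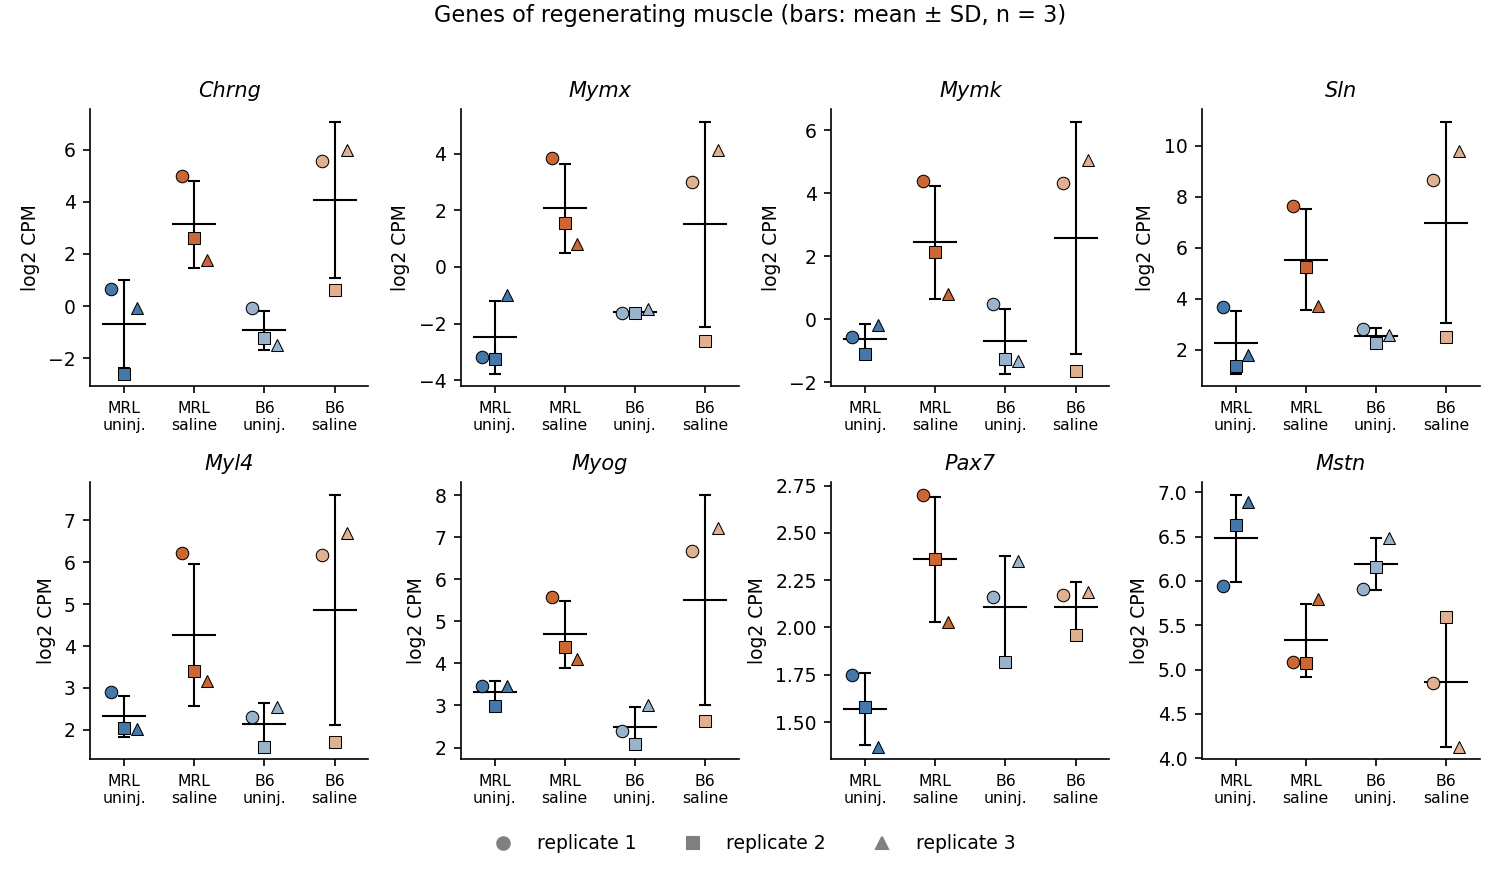
Log2 CPM (y axis) of 8 genes of regenerating muscle in uninjured and saline-treated MRL and B6 mice (x axis). Points are libraries, with a shape per replicate number, and black lines give the mean ± SD of 3 libraries. In MRL all saline points of Chrng, Mymx, Mymk, Sln, Myl4, Myog and Pax7 lie above all uninjured points and those of Mstn lie below, while in B6 saline replicate 2 sits near the uninjured libraries for Mymk, Sln, Myl4 and Myog.

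The regulators that drive satellite cells into this programme differed by less. Myog, the regulator that commits myoblasts to differentiation, was at 3.47, 2.99 and 3.47 in uninjured and at 5.58, 4.39 and 4.10 in saline-treated muscle, a log2 fold change of 1.38 ± 0.85. Pax7, which marks satellite cells, was at 1.75, 1.58 and 1.37 against 2.70, 2.36 and 2.03, a log2 fold change of 0.79 ± 0.34. Neither gene overlapped between the groups, and the 3 saline values of Pax7 were the more alike. Myostatin (Mstn), a secreted inhibitor of muscle growth made by mature fibres, went the other way and was at 5.94, 6.63 and 6.89 against 5.09, 5.08 and 5.80. Its log2 fold change was -1.16 ± 0.51, and it stayed between -1.43 and -0.96 when any 1 library was left out.

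Of 20 myogenic regulators, 14 had a log2 fold change above 0 and the median was 0.41, or 0.30 without saline replicate 1. Besides Myog and Pax7, the saline libraries lay above the uninjured ones for Myod1 (log2 fold change 0.64), Myf5 (0.49), the satellite cell receptor Megf10 (1.13) and the cell cycle inhibitor Cdkn1a (1.34). Of these, Myod1 separated by a hair, with a highest uninjured value of 4.62 and saline values of 5.67, 4.65 and 4.68. The count of non-overlapping members was 7 higher and 1 lower, Mstn.

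Several genes outside these lists, picked after their values were seen, also had saline values that all lay above the uninjured ones. Rrad, a small GTPase of injured and denervated muscle, was at 3.17, 2.52 and 2.24 in uninjured and at 7.01, 5.33 and 4.64 in saline-treated muscle (log2 fold change 3.02 ± 1.16). The keratin pair Krt8 and Krt18, which form the intermediate filaments of simple epithelia, had log2 fold changes of 3.22 ± 1.08 and 2.87 ± 1.09. Those of Aif1l, an actin-bundling protein, and Sox11, a developmental transcription factor, were 2.46 ± 0.92 and 2.75 ± 1.07, and that of Gdnf, a survival factor for motor neurons, was 2.03 ± 0.83. For each of these 6 genes saline replicate 1 was the highest library. Without it their log2 fold changes ranged from 1.27 for Gdnf to 2.64 for Krt8, so the difference was smaller for each of them and kept its sign.

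The α and δ subunits of the receptor did not separate the groups. Chrna1, the α subunit, was at 3.98, 1.86 and 4.05 against 6.01, 4.33 and 3.98, and Chrnd, the δ subunit, was at 2.57, 1.11 and 1.96 against 5.21, 3.46 and 2.20. Their log2 fold changes of 1.48 and 1.74 went down to 0.76 and 0.95 when 1 library was left out. In the list of synapse and denervation genes, 13 of 18 had a log2 fold change above 0 with a median of 0.28, and Gadd45a (5.60, 5.46 and 7.27 in the saline libraries 2, 3 and 1, and at most 5.28 in uninjured muscle) was the only member that did not overlap. The median of this list was 0.65 without uninjured replicate 1 and -0.09 without uninjured replicate 2, so its sign rested on the latter.

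Mature fast-fibre genes differed little. Of 18 adult fast-fibre genes, 2 had a log2 fold change above 0 and the median was -0.24, which became -0.10 at equal totals, -0.04 with quantile normalization and -0.09 without uninjured replicate 3. Actn3, the fast Z-disc actinin, was at 12.93, 13.59 and 14.10 in uninjured and at 12.82, 12.46 and 13.08 in saline-treated muscle, and the predominant fast myosin Myh4 was at 15.64, 16.07 and 16.32 against 15.35, 15.16 and 15.88. The fast troponin Tnnc2 alone among them did not overlap (log2 fold change -0.45 ± 0.50). Genes of calcium handling lay alongside, with 13 of 15 below 0 and a median of -0.31 that became -0.17 at equal totals and -0.12 with quantile normalization. At equal totals the median of all genes was 0.13. The junctional proteins Jph1, Trdn and Jsrp1 lay lower in every saline library, with log2 fold changes of -0.38, -0.39 and -0.39. The summed level of 6 muscle markers was 113000 to 163000 CPM in uninjured and 89600 to 126000 CPM in saline-treated muscle, and its part in these small differences was not tested.

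Slow-fibre genes varied between libraries far more than between groups. The slow myosin Myh7 was at 8.38, 1.70 and 2.87 log2 CPM in uninjured and at 3.02, 9.71 and 5.50 in saline-treated muscle. Slow troponin Tnni1 had its highest values, 5.79 and 6.86, in the same libraries, uninjured replicate 1 and saline replicate 2. All 13 slow-fibre genes had a log2 fold change above 0, with a median of 1.02, yet no member separated the groups. The median was 0.28 without saline replicate 2 and 2.01 without uninjured replicate 1.

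Matrix genes were higher in saline-treated muscle almost entirely through 1 library. All 36 genes of collagens and other matrix proteins had a log2 fold change above 0 and their median was 0.63, but saline replicate 1 was the highest of the 6 libraries for 35 of them. The list's median stood at 1.69 in that library, 0.06 in replicate 2 and 0.23 in replicate 3, and the median fold change was 0.16 without replicate 1. Col1a1, the main chain of scar collagen, was at 8.28, 8.38 and 7.62 in uninjured and at 10.44, 7.92 and 8.05 in saline-treated muscle. Its log2 fold change of 0.71 ± 0.73 became -0.11 without saline replicate 1, and that of Col3a1 went from 0.64 to -0.02.

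Sparc, a collagen-binding protein secreted by remodelling tissue, was the exception in this list for size. It was at 5.34, 5.15 and 8.08 in uninjured and at 10.03, 8.26 and 8.33 in saline-treated muscle, with a log2 fold change of 2.68 ± 0.88. Uninjured replicate 3 sat next to the saline libraries, and uninjured B6 muscle ranged from 8.39 to 8.78, so the difference came from low values in 2 uninjured MRL libraries. Fibronectin (Fn1), an early provisional matrix protein, was at 7.06, 6.82 and 6.57 against 8.55, 7.45 and 7.17, a log2 fold change of 0.91 ± 0.71 without overlap.

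Proteases that remodel matrix were described with their inhibitors and receptors. Of 20 matrix proteases and inhibitors, 19 had a log2 fold change above 0 with a median of 0.62, and 7 did not overlap and were higher. They were the macrophage elastase Mmp12 (log2 fold change 0.87), the collagenase Mmp13 (0.85), the inhibitor Timp1 (1.73), urokinase Plau (0.52) and its receptor Plaur (1.07), and the disintegrin proteases Adam8 (0.94) and Adam19 (1.14). Without saline replicate 1 the list's median was 0.23. Plaur was at 0.79, 0.98 and 0.77 in the saline libraries and at -0.88, 0.41 and -0.19 in the uninjured ones, so its difference did not rest on that library.

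Among 18 fibroblast and progenitor genes, 15 were above 0 with a median of 0.25, or 0.03 without saline replicate 1. Pdgfrb, the platelet-derived growth factor receptor of pericytes and fibroblasts, was at 5.13, 5.16 and 4.88 in uninjured and at 6.02, 5.54 and 5.45 in saline-treated muscle. Its log2 fold change of 0.61 ± 0.20 is one of the 12 with the smallest p among higher genes whose groups did not overlap. Cd34 (0.57) and the activated fibroblast protease Fap (0.63) also did not overlap. Tendon and cartilage genes had a median of 1.21 over 15 genes, which became 0.37 without saline replicate 1. Their summed CPM was 80.7 to 240 in uninjured muscle, 221 and 226 in saline replicates 3 and 2 and 981 in replicate 1, and tenomodulin (Tnmd) was at 2.95, 3.57 and 1.17 against 5.80, 3.59 and 3.20. The part of tendon in the matrix values of saline replicate 1 was not tested.

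Some immune genes stood high in 1 saline library and others in all 3. General macrophage genes had a median of 0.72 over 27 genes and MHC class II genes one of 1.03 over 8, and without saline replicate 1 these were 0.32 and 0.54. All 8 class II genes lay above 0, and 2 did not overlap and were higher (5.97% of all genes). The class II list stood at 1.88, 0.74 and 0.64 in the saline libraries and at -0.23, 0.62 and -0.25 in the uninjured ones. The macrophage median was 0.34 without uninjured replicate 3. Cd74, the invariant chain of MHC class II, was at 4.76, 5.62 and 4.61 in uninjured and at 7.28, 5.16 and 5.62 in saline-treated muscle, and H2-Aa followed it. Lysozyme (Lyz2) and cathepsin S (Ctss) were the general macrophage genes that did not overlap, with log2 fold changes of 1.08 and 1.23. Monocyte receptor Ccr2 was at 1.86, 1.82 and 0.61 against 4.43, 1.68 and 2.03, so only saline replicate 1 stood out.

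Genes of lipid-associated macrophages, the phagocytes that take up lipid and debris in fat, plaques and healing muscle, had a log2 fold change above 0 for 15 of 17 measured members, and 7 of the 17 were higher in every saline library. Gpnmb, a glycoprotein of such cells, was at 5.02, 4.60 and 5.08 in uninjured and at 5.88, 5.79 and 6.25 in saline-treated muscle. Lgals3, or galectin-3, was at 3.31, 3.45 and 3.43 against 5.13, 4.23 and 4.25, and the lipid receptor Trem2 at 1.99, 1.66 and 1.86 against 3.75, 2.27 and 2.57. In each the uninjured values were close to one another and the saline values all stood above them. The integrin Itgax (log2 fold change 0.90), Mmp12, the proton pump subunit Atp6v0d2 (1.00) and Cd9 were the other members that did not overlap. The list's median was 0.51, with 0.68, 0.48 and 0.51 in the saline libraries against 0.13, 0.09 and -0.18 in the uninjured ones, and 0.50 without saline replicate 1. Because these genes vary widely within other groups of the study, their limma SE was large, at 1.52 for Gpnmb and 1.13 for Lgals3, and none reached an unadjusted p under 0.05.

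Neutrophil genes showed the same evenness at low levels. Of 11 measured genes, 10 had a log2 fold change above 0 and the median was 1.35, and the list stood at 1.26, 1.44 and 1.08 in the saline libraries against -0.06, 0.06 and -0.30 in the uninjured ones. Csf3r, the receptor for granulocyte colony-stimulating factor, was at -0.86, -0.56 and -0.60 in uninjured and at 1.13, 0.77 and 0.91 in saline-treated muscle. This was a log2 fold change of 1.61 ± 0.73 that stayed between 1.51 and 1.69 when any 1 library was left out. S100a9, Il1b and Cxcl2 did not overlap either, but all their values lay under 0 log2 CPM and some uninjured ones under the floor of 3 counts (-2.33 log2 CPM). On a log2(CPM + 1) scale, which shrinks low genes, the median of the list was 0.35.

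Lipocalin-2 (Lcn2), an iron-scavenging protein counted in that list, was at 4.58, -1.21 and -0.53 in uninjured and at 4.29, 4.62 and 4.83 in saline-treated muscle. Lactotransferrin (Ltf) was at 2.53, -3.65 and -2.37 against 0.40, 1.45 and 2.80. Both are also secreted by glands, and the milk protein gene Lalba was at 0.78 in uninjured replicate 1, was listed at 0 (-3.65) in replicates 2 and 3, and was at 1.98, 1.66 and 2.33 in the saline libraries. The 3 genes were thus high in the same uninjured library, and the part of glandular tissue in them was not tested.

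Chemokines and lymphocyte genes were measured at lower levels. Of 26 chemokine genes and receptors, 24 lay above 0 with a median of 0.71, or 0.41 without saline replicate 1, and 6 did not overlap. Cxcl16, a membrane-bound chemokine and scavenger receptor, was among them at 1.63, 1.02 and 0.69 against 3.00, 1.69 and 1.98. T and NK cell genes had a median of 0.53 over 14 genes, which was 0.18 without saline replicate 1, 0.25 over genes with a mean of at least 1 log2 CPM, 0.13 at log2(CPM + 1) and 0.14 with quantile normalization. Class I MHC genes had one of -0.12 over 15, which was -0.44 without saline replicate 1 and 0.23 without uninjured replicate 2. Mast cell proteases Cpa3 and Cma1 were both higher in every saline library, and Cma1 was at 0.69, 1.20 and 0.84 in uninjured and at 1.79, 1.84 and 1.76 in saline-treated muscle.

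**Figure D2:**
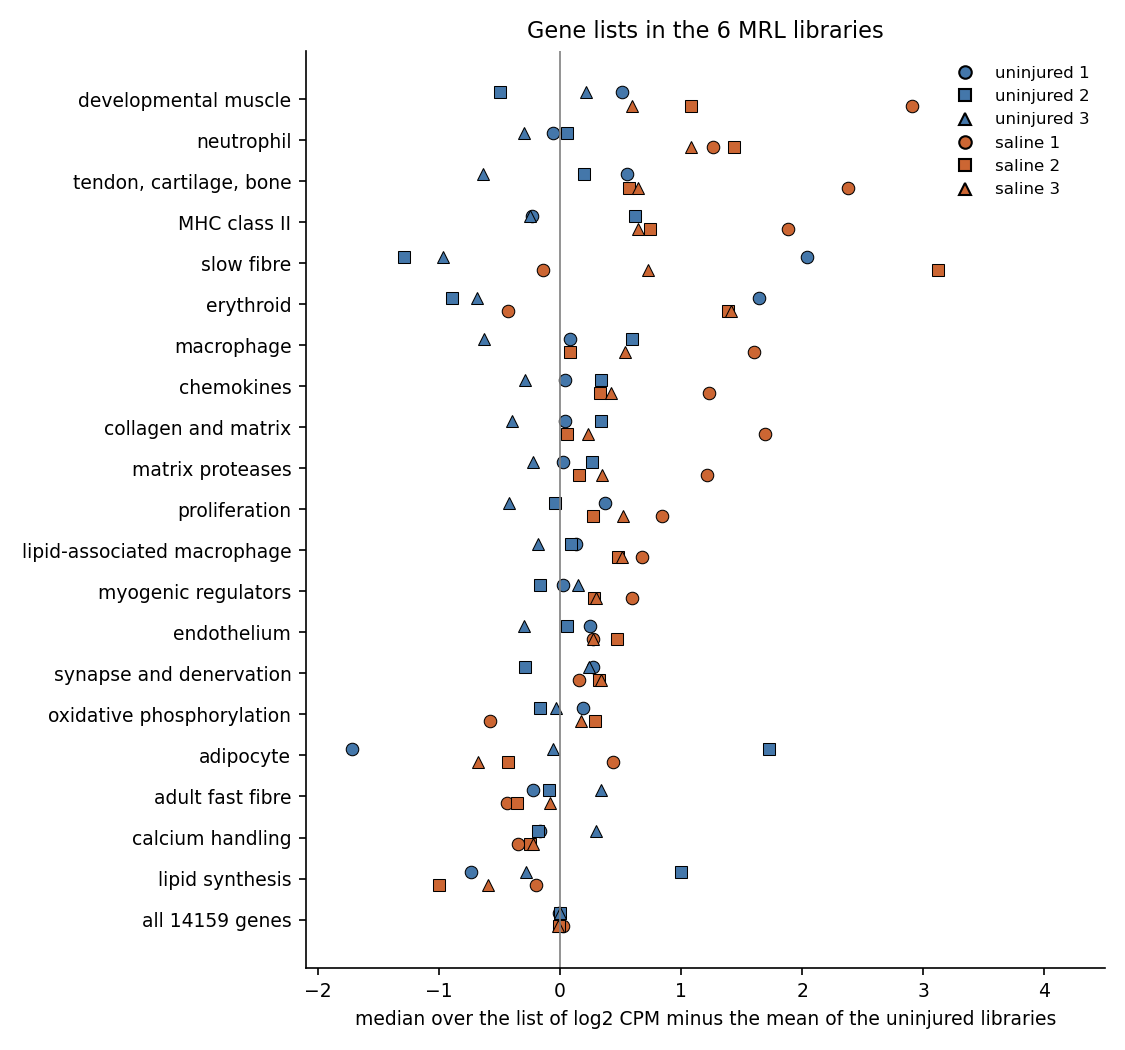
Median over each gene list of log2 CPM minus the mean of the 3 uninjured MRL libraries (x axis) for 20 lists and all genes (y axis), in each of the 6 MRL libraries. Blue points are uninjured and orange points saline libraries, with a shape per replicate. Neutrophil and lipid-associated macrophage genes stand above the uninjured libraries in all 3 saline libraries, whereas collagen, macrophage and tendon genes do so mainly in saline replicate 1 (1.69, 1.60 and 2.38) and slow-fibre and adipocyte genes spread widely in both groups.

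Vessel genes held the higher gene with the smallest p among those whose groups did not overlap and whose mean over the 6 libraries was at least 1 log2 CPM. Apelin (Apln), a peptide of sprouting endothelial tip cells also made by muscle fibres, was at 2.06, 2.26 and 1.83 in uninjured and at 2.87, 3.35 and 3.15 in saline-treated muscle, and saline replicate 1 was here the lowest of the saline libraries. The log2 fold change was 1.08 ± 0.29, a 2.11-fold difference in level, and it stayed between 0.96 and 1.20 when any 1 library was left out. Its receptor Aplnr was at 3.22, 3.80 and 2.93 against 4.69, 3.70 and 3.84, a log2 fold change of 0.76 ± 0.27 with overlap. All 19 endothelial genes had a log2 fold change above 0, with a median of 0.32, one of 0.37 without saline replicate 1 and one of 0.17 without uninjured replicate 3. Besides Apln, the junction proteins Cdh5 (0.39) and Esam (0.34) and the tip-cell proteoglycan Esm1 (0.53) did not overlap. The list stood at 0.27, 0.47 and 0.27 in the saline libraries and at 0.25, 0.06 and -0.30 in the uninjured ones, so uninjured replicate 1 lay near the saline range.

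Tmem100, a membrane protein of vessels that responds to bone morphogenetic protein signalling, was among the lower genes. It was at 4.65, 5.07 and 5.35 in uninjured and at 3.84, 3.86 and 3.89 in saline-treated muscle. The saline values lay close together, well under the uninjured ones, and the log2 fold change was -1.16 ± 0.29.

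Mt2 was at 1.67, 2.11 and 1.00 in uninjured and at 4.27, 2.39 and 3.08 in saline-treated muscle, a log2 fold change of 1.65 ± 0.50 and of 1.14 without saline replicate 1. Its neighbour and relative Mt1 was at 3.46, 3.76 and 2.99 against 4.28, 3.83 and 3.99, also without overlap. The rest of the stress and heat shock list did not share this, with a median of 0.13 over 23 genes.

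**Figure D3:**
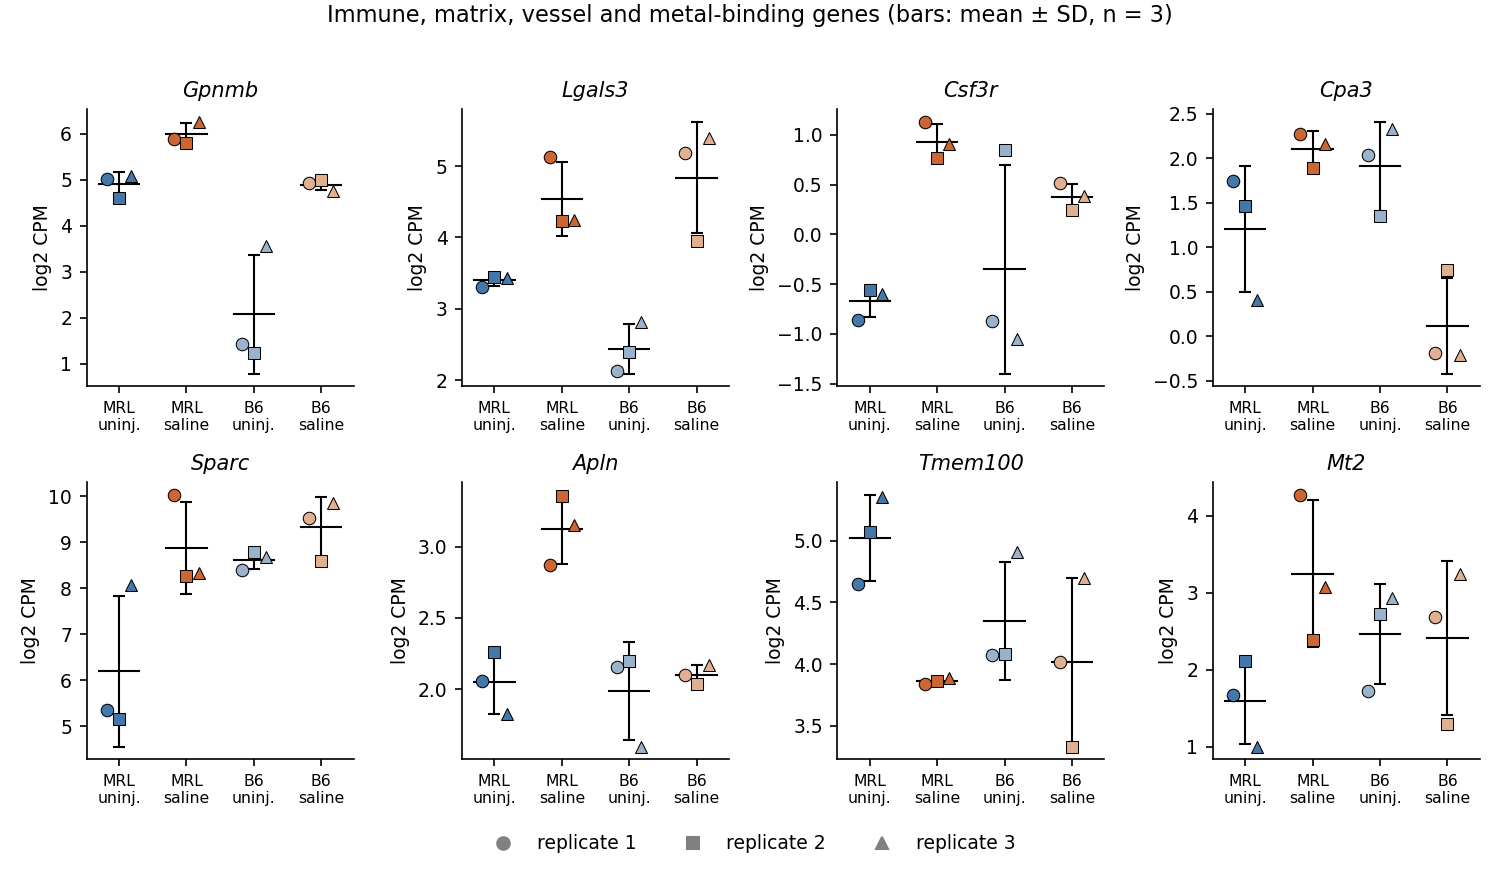
Log2 CPM (y axis) of 8 immune, matrix, vessel and metal-binding genes in uninjured and saline-treated MRL and B6 mice (x axis). Points are libraries, with a shape per replicate, and black lines give the mean ± SD of 3 libraries. In MRL the saline points of Gpnmb, Lgals3, Csf3r, Cpa3, Sparc, Apln and Mt2 all lie above the uninjured points and those of Tmem100 below, and Cpa3 runs the other way in B6.

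The 12 higher genes with the smallest unadjusted p whose groups did not overlap, at that mean level, also held Tmem47, Tmem176a, Tmem176b, Prickle2, Sh3bgrl2, Runx1t1, Igdcc4 and Aldh3a1. Aldh3a1, an aldehyde dehydrogenase, differed by most. It was at -0.64, -0.85 and -0.26 in uninjured and at 5.45, 3.41 and 2.01 in saline-treated muscle (log2 fold change 4.21 ± 1.40). Tmem176a and Tmem176b, neighbouring genes of ion channel-like proteins found in macrophages and dendritic cells, had log2 fold changes of 1.17 and 1.13. Sh3bgrl2 was at 1.33, 1.20 and 0.77 against 2.67, 2.43 and 2.10, one of the more even differences (1.30 ± 0.41). Igdcc4, a cell-surface protein of the immunoglobulin family, was at 4.69, 4.04 and 4.25 against 5.54, 5.55 and 5.16.

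Most of the 12 lower genes held small differences. Ppig, a nuclear peptidyl-prolyl isomerase linked to splicing, had the smallest p among these 12 lower genes. It was at 5.70, 5.63 and 5.74 in uninjured and at 5.03, 4.97 and 5.25 in saline-treated muscle, a log2 fold change of -0.61 ± 0.13. The gene spans bases 69552889 to 69584368 of chromosome 2 on GRCm39. Otub2, a deubiquitinase, was at 4.94, 4.75 and 4.72 against 2.85, 3.99 and 4.05 (-1.18 ± 0.34), and saline replicate 1 was the lowest. Ccdc50, Tdrd3, Alg2, Dnase1l1, Kdm2b, Pgm2l1 and Spopl had log2 fold changes between -0.83 and -0.44. The interferon-induced GTPase Tgtp1 (-1.36 ± 0.33) is uncertain, since reads can be split with its near-identical copy Tgtp2.

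**Figure D4:**
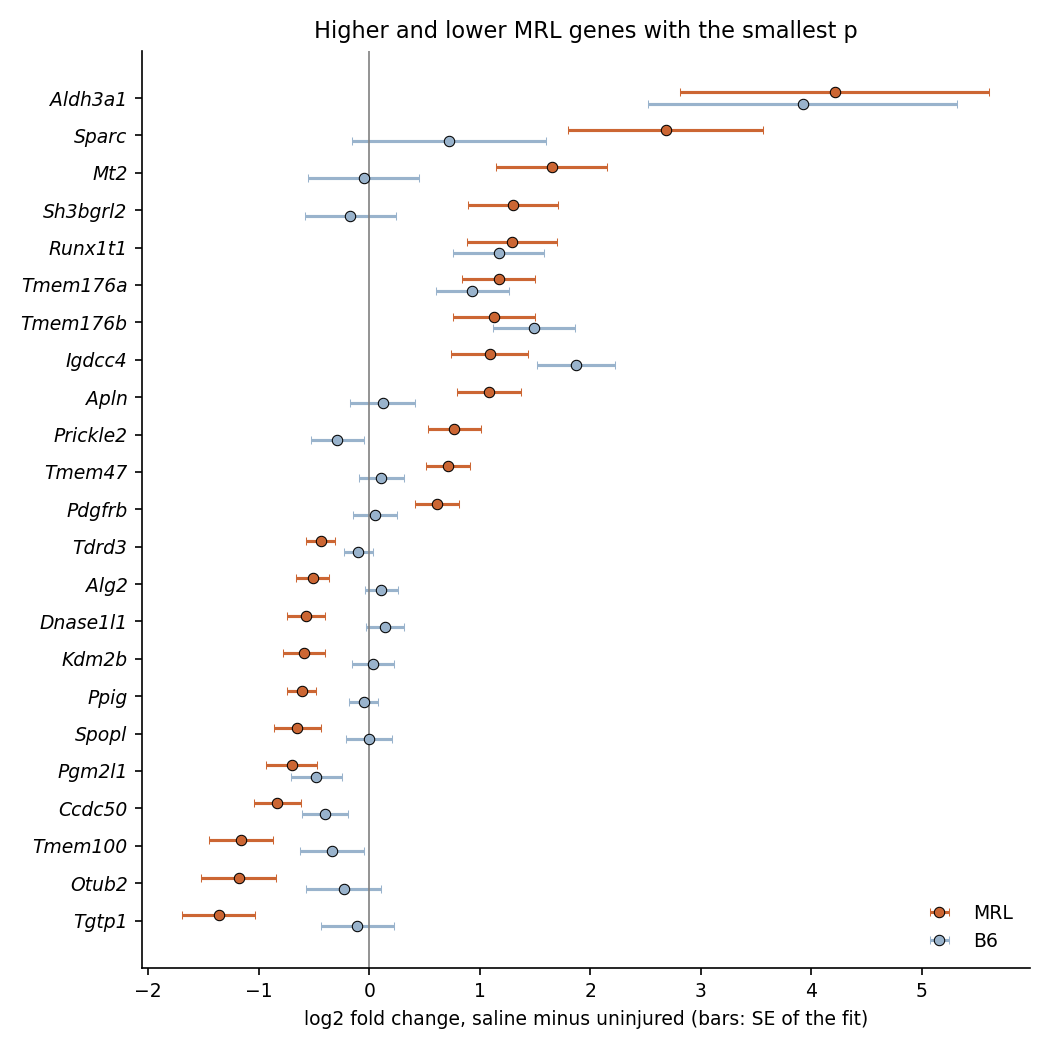
Log2 fold change of saline-treated against uninjured muscle (x axis) in MRL (orange) and B6 (blue) for 12 higher and 11 of the 12 lower MRL genes with the smallest unadjusted p whose groups did not overlap (y axis). Bars are the SE of the limma fit. The genes were chosen on the MRL values, which run from 4.21 for Aldh3a1 to -1.36 for Tgtp1, and most of the B6 values of the lower genes lie near 0.

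Fat genes did not separate the groups. Adiponectin (Adipoq), the hormone of fat cells, was at 4.20, 8.05 and 6.26 in uninjured and at 7.42, 5.01 and 5.72 in saline-treated muscle, and the median of 23 adipocyte genes was -0.13, or -0.59 without saline replicate 1, -0.88 without uninjured replicate 1 and 0.39 without uninjured replicate 2. Ucp1, the uncoupling protein of brown fat, was at -0.03, 5.72 and 2.03 against 0.34, 4.16 and -0.41. Uninjured replicate 2 held the highest level of both, and the summed adipocyte CPM was 10800 in it, 5180 and 5670 in the other uninjured libraries and 5930 to 6590 in the saline libraries.

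Genes that make fatty acids were lower for the most part, with 18 of 20 below 0 and a median of -0.41. The elongase Elovl6 was at 4.49, 7.89 and 5.30 in uninjured and at 4.35, 4.19 and 4.13 in saline-treated muscle. Malic enzyme Me1, which supplies reducing power for the synthesis, was at 7.92, 9.29 and 8.75 against 7.57, 7.51 and 7.80, and the acyltransferase Gpam was at 5.27, 5.66 and 5.32 against 4.35, 5.20 and 4.98. These were the 3 members that did not overlap, and the saline values of Elovl6 and Me1 were alike where the uninjured ones ranged widely. Without uninjured replicate 2, the library rich in fat genes, the median of the list was 0.07, and it was -0.73 without saline replicate 1 and -0.83 without uninjured replicate 1. Fatty acid oxidation (-0.01 over 23 genes), oxidative phosphorylation (-0.04 over 31) and glycolysis (-0.20 over 23) had medians near that of all genes, and without saline replicate 1 these were 0.32, 0.24 and -0.13.

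Erythroid genes followed the library, not the group. The globin gene Hba-a1 was at 10.48, 7.77 and 7.88 in uninjured and at 8.28, 10.09 and 10.14 in saline-treated muscle, with high and low libraries in both groups. Schwann cell and nerve genes had a median of -0.18 over 13 genes.

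**Figure D5:**
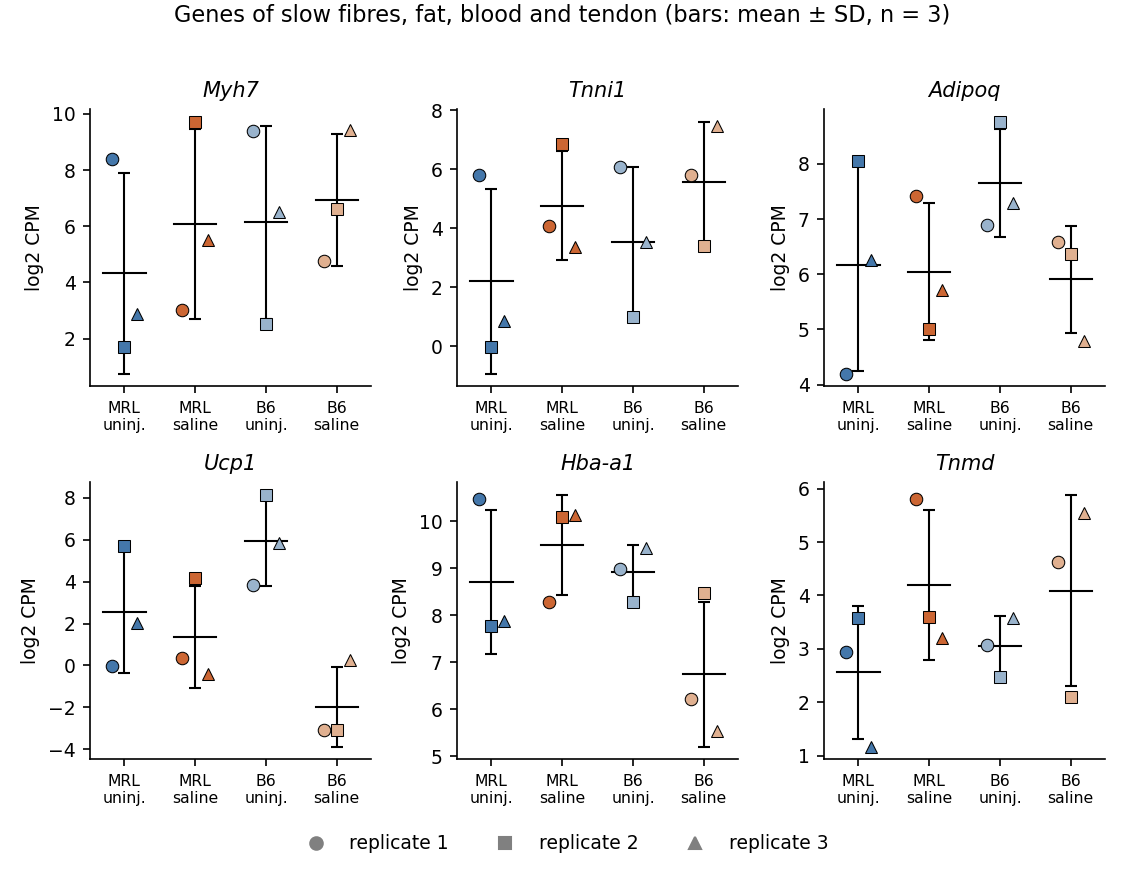
Log2 CPM (y axis) of 2 slow-fibre genes (Myh7, Tnni1), 2 fat genes (Adipoq, Ucp1), a globin (Hba-a1) and the tendon gene Tnmd in uninjured and saline-treated MRL and B6 mice (x axis). Points are libraries, with a shape per replicate, and black lines give the mean ± SD of 3 libraries. The MRL groups overlap for all of them, and Myh7 spans 1.70 to 9.71 within the 6 libraries.

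Proliferation genes gave a mixed picture. Of 23, 19 had a log2 fold change above 0 and the median was 0.58, which became 0.22 over genes with a mean of at least 1 log2 CPM, 0.35 without uninjured replicate 3 and 0.40 without saline replicate 1. Ribonucleotide reductase subunit Rrm2, needed for DNA synthesis, was at 1.33, 0.25 and -0.73 in uninjured and at 2.12, 1.84 and 1.41 in saline-treated muscle, and Cdc20, an activator of the anaphase-promoting complex, had a log2 fold change of 1.45 ± 0.66. The mitotic kinase Aurka lay the other way at 3.93, 4.49 and 4.85 against 2.34, 3.34 and 3.64 (-1.32 ± 0.45), with its spindle partner Tpx2 (-0.44).

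The same injury in B6 mice rests on libraries that are not shared with the MRL comparison. There too no gene was called (0%), with 1751 genes (12.4%) at an unadjusted p under 0.05. The groups did not overlap for 1216 higher (8.59%) and 1039 lower genes (7.34%). The study, by contrast, reports genes that changed significantly in B6 muscle after this injury. The absence of B6 calls therefore belongs to the limma fit to log2 CPM used here and does not show that B6 muscle lacked a response. Why the fit and the study differ was not tested. The typical gene had an SD of 0.386 among the B6 saline libraries. 161 genes did not overlap and were higher in both strains, 19% of those in MRL and 13.2% of those in B6, and 70 were lower in both (6.99% and 6.74%). Across genes the 2 sets of log2 fold changes had a Pearson correlation of 0.302, given as a description since genes are not independent.

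Whether the strains responded differently was tested as the MRL fold change minus the B6 one. No gene was called (0 of 14159, 0%, smallest limma adjusted p = 1), and 570 genes (4.03%) had an unadjusted p under 0.05. Developmental muscle genes had medians of 1.59 in MRL and 2.71 in B6, and the MRL fold change was the smaller for 14 of 17, but the unadjusted p of the difference was under 0.05 for none of them. Chrng had log2 fold changes of 3.80 in MRL and 4.99 in B6, a difference of -1.19 ± 1.88, and Mymx of 4.56 and 3.08, a difference of 1.47 ± 1.93. Mymk was at 4.32, -1.65 and 5.06 in the 3 B6 saline libraries, with replicate 2 near the uninjured ones. For this gene each MRL saline library lay above its uninjured group. Over the list, 6 genes did not overlap and were higher in B6 and 5 in MRL (8.59% and 5.97% of all genes). An unadjusted p under 0.05 was reached by 12 of the 17 in B6 and 4 in MRL (12.4% and 3.1% of all genes).

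Pax7 was at 2.16, 1.82 and 2.35 in uninjured and at 2.17, 1.96 and 2.19 in saline-treated B6 muscle, and the B6 log2 fold changes of Apln and Mt2 were 0.12 and -0.05. The difference between strains was 0.80 ± 0.49 for Pax7, 0.96 ± 0.42 for Apln and 1.70 ± 0.71 for Mt2, each with a limma adjusted p of 1. Apln and Mt2 were picked on their MRL values, so these differences are a description. Adipocyte genes had medians of -0.13 in MRL and -1.65 in B6 and fatty acid oxidation genes of -0.01 and -1.20, and 1 and 2 members respectively had an unadjusted p of the difference under 0.05. The MRL adipocyte median ran from -0.88 to 0.39 with 1 library left out. Endothelial genes had medians of 0.32 and -0.18. Neutrophil genes stood at 1.35 and 0.06, although Lcn2, which was lower in 2 of 3 B6 saline libraries, differed by 7.51 ± 2.29 (limma adjusted p = 1). Gpnmb was at 5.02, 4.60 and 5.08 in uninjured MRL and at 1.44, 1.24 and 3.57 in uninjured B6 muscle. Its log2 fold change was 1.07 in MRL and 2.81 in B6, a difference of -1.74 ± 2.15. The whole lipid-associated macrophage list had medians of 0.51 in MRL and 0.00 in B6, and 15 and 9 of its 17 genes lay above 0. The MRL fold change was the smaller for 9 of the 17.

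The study names 18 genes for the control injury, chosen on samples of this series, so their direction is not independent evidence. In MRL muscle 12 of them had a log2 fold change above 0, with a median of 0.57. It became 0.02 without saline replicate 1 and 0.19 without uninjured replicate 3. The study names some of the genes as higher and others as lower after injury, so these values mix 2 directions. In B6, 9 lay above 0 and the median was 0.18. The sign was the same in both strains for 15 of the 18, and for 8828 of all 14159 genes. Complement receptor C3ar1 (1.07) and Itgax did not overlap and were higher, and Mstn was lower. Smooth muscle calponin Cnn1 was at 0.54, -0.06 and -1.25 in uninjured muscle and at -0.74 in saline replicate 1. In saline replicates 2 and 3 it was at -3.65, a count of 0, and its log2 fold change was -2.42. In B6 muscle 8 of the 18 did not overlap and were higher, and 8 did not overlap and were lower. The study picked many of these genes for a change in these same B6 mice. Their separation in B6 is therefore favoured by that choice and cannot be set against the MRL counts.

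Implants in the same defect were compared with the same 3 uninjured MRL libraries, so their values are given side by side only. ECM gave 2 called genes (0.0141%) and PE 1377 (9.73%) against uninjured MRL muscle. Chrng had log2 fold changes of 3.80 with saline, 4.25 with ECM and 1.94 with PE, and the developmental muscle list had medians of 1.59, 1.64 and 0.59. For Apln the 3 values were 1.08, 0.15 and 0.42, and for Mstn they were -1.16, -0.18 and -0.91. The lipid-associated macrophage list had medians of 0.51 with saline, -0.04 with ECM and 1.61 with PE, and collagen and matrix genes of 0.63, 0.45 and 1.35.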

How the data were processed

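Bulk RNA was sequenced from whole quadriceps, and the authors mapped paired-end reads with kallisto to Ensembl GRCm39 transcripts and summed them to genes. The authors kept genes above 1 CPM in at least 3 libraries, scaled the libraries by TMM in edgeR, and the deposited values are log2 CPM with a prior count of 2. Of 14160 rows, 1 had no symbol and was dropped. A value of -3.65 stands for a count of 0, and the mean effective library size it implies is 25149678 counts, at which 3 counts are 0.119 CPM. Depth limits the low genes, and intervals between libraries rest on 3 per group.

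Groups followed the GEO labels. The values are not counts, so instead of the voom fit that the study used, limma 3.58.1 in R 4.3.3 was fitted to the log2 CPM of all 24 libraries with 1 coefficient per group, a variance trend, 2-sided tests and Benjamini-Hochberg adjustment over all genes. In data simulated for this comparison over 14159 genes, with 100 genes changed at each size, 96% of changes of 3 and 69% of changes of 1.5 on the log2 scale were called, with 9 false calls, and 0 genes were called when none was changed. The simulated noise was independent and equal in all libraries, whereas estimated library weights ran from 0.0939 to 5.93. These shares may therefore not hold for the real libraries. Chrng, Mymx and Aldh3a1 differed by more than 3 with an SE above 1, and none was called. Summaries used Python 3.11.15 with pandas 2.3.3 and matplotlib 3.10.9.

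The 41 gene lists (708 genes, 662 of them in the matrix, 7 under an older symbol) and the comparison itself were chosen with earlier results of these data known. Genes were named if they were among the 12 higher and 12 lower non-overlapping genes with the smallest unadjusted p and a mean of at least 1 log2 CPM over the 6 libraries (leaving out predicted genes, clones and pseudogenes), among the 4 members of a list with the largest absolute log2 fold change at that level, or named by the study for this injury. Not every such gene is printed, and genes named outside the rule were chosen after their values were seen. Some genes that the rule or a list holds are not reported here. Other settings tried were a log2(CPM + 1) scale, a minimum mean of 1 log2 CPM, equal totals, quantile normalization, the 6 libraries alone, library weights (gene-by-gene method, since the default did not converge), no variance trend, a replicate block, and each MRL library left out. Gene positions came from GENCODE on GRCm39 and promoter sequences from RefSeq on GRCm38.p6.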

Additional observations from a re-analysis of the deposited data

Results flagged for a closer look

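For 3 of the genes named here the saline libraries lay all above the uninjured ones in MRL and all below them in B6. The mast cell protease Cpa3 was at 1.75, 1.47 and 0.41 log2 CPM in uninjured and at 2.27, 1.89 and 2.16 in saline-treated MRL muscle, and at 2.04, 1.35 and 2.33 against -0.19, 0.74 and -0.21 in B6. Its MRL fold change minus its B6 one was 2.69 ± 0.70 on the log2 scale (limma adjusted p = 1). All 8 measured mast cell genes had a log2 fold change below 0 in B6, with a median of -1.49, and 7 of the 8 were above 0 in MRL, with a median of 0.41 that became -0.11 without uninjured replicate 3. For Prickle2, a planar polarity protein, the difference between the strains was 1.06 ± 0.34, and for Cdh5, the cadherin of endothelial junctions, it was 0.75 ± 0.41, both with a limma adjusted p of 1. These genes were picked for this pattern, so the differences are a description. Over all genes, 23 of the 846 that were higher in MRL without overlap (2.72%) were lower in B6 without overlap. Of all 14159 genes, 1039 (7.34%) were lower in B6 without overlap, so the opposite pattern was rarer among these 846 than among all genes.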

How the results depend on the processing

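No gene was called by limma under the other scales, filters, normalizations, weights, the fit without a trend or the replicate block, and none when 1 library was left out. The fit to the 6 libraries alone called 1 gene, Sbno2 (limma adjusted p = 0.0241, log2 fold change 5.52). It was at -3.65 log2 CPM, a count of 0, in all 3 uninjured libraries and at 1.93, 1.45 and 2.21 in the saline ones. The genes at an unadjusted p under 0.05 numbered 822 in that fit and 1114 with library weights, against 439, and 153 to 648 with 1 library left out, the fewest without uninjured replicate 3 and 284 without saline replicate 1. Genes without overlap numbered 2406 to 3768 with 1 library left out, by construction, since 2 libraries against 3 overlap less. Library weights called 20 genes for the difference between strains. After the mean of each group was subtracted, same-numbered MRL libraries correlated across genes at -0.242, -0.295 and 0.132. Differently numbered ones ranged from -0.205 to 0.389. Such residuals sum to 0 within each group of 3, so these values give no clear sign of pairing but cannot settle it. The replicate block left 394 genes at an unadjusted p under 0.05.

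The neutrophil median of 1.35 became 0.35 at log2(CPM + 1), 1.61 with the filter, 0.92 with quantile normalization and 0.96 with weights (0.88 to 1.37 with 1 library left out). The stress median of 0.13 became 0.26 at equal totals and 0.20 with quantile normalization (0.13 to 0.23), and that of B cell genes, 0.29, became -0.14 with the filter. At equal totals the median of all genes moved as well, from -0.01 to 0.13. With 1 library left out, the medians ranged from 0.02 to 0.85 for the study's genes, 0.20 to 0.49 for myogenic regulators, -0.09 to 0.65 for synapse genes and 0.40 to 0.77 for lipid-associated macrophages. The differences of Acta1 (0.00) and Adipoq (0.02) turned at equal totals and that of Acta1 (0.00) with quantile normalization. With 1 library left out the ranges that crossed 0 were -0.23 to 0.01 for Acta1, -1.10 to 0.82 for Adipoq, -0.11 to 1.15 for Col1a1, -0.02 to 1.03 for Col3a1, -0.06 to 3.79 for Myh7 and -2.61 to 0.36 for Ucp1. The causes were not tested.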

Other observations

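Other gene groups had the following medians, against -0.01 over all genes. TGF-β and activin genes had a median log2 fold change of 0.10 over 19 genes, cell cycle inhibitors of 0.12 over 12, hypoxia and mechanosensing genes of 0.12 over 15, circadian genes of -0.09 over 19, smooth muscle genes of 0.06 over 15, keratinocyte genes of 0.24 over 5 and B and plasma cell genes of 0.29 over 8. Interferon-induced genes had a median of 0.17 over 30 genes, complement genes of 0.41 over 17 and alternative activation genes of 0.47 over 12, and without saline replicate 1 these were -0.03, 0.10 and 0.02. Immediate early genes had a median of 0.32 over 23 genes, which was 0.33 without that library, and 20 of them lay above 0. Erythroid genes had a median of 0.80 over 6 genes in MRL (0.35 to 1.65 with 1 library left out) and of -2.31 in B6. Each of the 6 had an unadjusted limma p under 0.05 for the difference between the strains (4.03% of all genes), without one being called. The list stood at 1.64, -0.89 and -0.69 in the uninjured and at -0.43, 1.39 and 1.41 in the saline MRL libraries. It thus varied widely within both groups, and its 6 genes are not independent of one another.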
